A study of Mus musculus with 10 samples.

Results

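Nascent transcription after 6 h of SOX2 depletion was compared with that after 2 h, to separate what changed late from what had already changed early. The comparison used 4 of the 10 libraries of a TT_chem-seq time course, namely the 2 libraries labelled 2hpd and the 2 labelled 6hpd, where hpd counts the hours of depletion. TT_chem-seq labels RNA in living cells with a brief pulse of 4-thiouridine (4SU) and sequences the labelled fragments, so that it reads RNA made during the pulse (2 mM for 10 min) and not the stock of mature RNA. All libraries came from E14 mouse embryonic stem cells (ESCs) of the genotype SOX2-FKBP, in which SOX2 carries an FKBP degron tag, grown without serum in LIF with the MEK inhibitor PD0325901 and the GSK3 inhibitor CHIR99021. The 2hpd and 6hpd cells had received 500 nM dTAG-13, which brings the tagged protein to a ubiquitin ligase for degradation, for 2 h or for 6 h. For context, levels are also given for the not-treated (NT) cells, which received DMSO, and for the 1hpd cells, which had 1 h of dTAG-13. Each group held 2 libraries of this tagged line. Longer depletion also meant longer exposure to dTAG-13 and possibly more time since the medium was refreshed, so that these cannot be told apart from the loss of SOX2, and the labels do not say that the paired libraries came from separate cultures, so that p-values measure only the spread between these libraries.

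SOX2 is a transcription factor with an HMG-box DNA-binding domain that binds enhancers with OCT4 and maintains the pluripotent state of ESCs. Once such a factor is removed, genes that need it directly lose transcription first, and genes that depend on the products of those first genes follow later, as mRNA and protein turn over. Sterol synthesis is one of the best-understood feedback systems in the cell. When membrane cholesterol is low, SREBP2 leaves the endoplasmic reticulum with its escort SCAP and activates the genes of the pathway and of lipoprotein uptake, and when cholesterol is plentiful INSIG proteins hold the complex back.

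Fragments had been counted in 40779 transcribed units (TUs), intervals in which the authors' model found labelled RNA on a given strand. The test took the 28459 TUs that had more than 10 fragments in at least 2 of the 10 libraries. A gene symbol was attached to 14997 of them, and 13462 had none. The 4 libraries held between 14275938 and 21726623 fragments. Replicates correlated at r = 0.989 for 2hpd and r = 0.988 for 6hpd across TUs, with 0.982 to 0.987 between the 2 times. The stem cell label fitted the markers, since Nanog lay between 279 and 303 CPM, Pou5f1 between 97.3 and 127 CPM and Esrrb between 802 and 976 CPM in these 4 libraries. CPM here is the depth-scaled fragment count of edgeR after TMM normalisation, not divided by length, so that levels are compared between libraries for one TU and not between TUs.

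At an adjusted p below 0.05 in edgeR's quasi-likelihood test, with Benjamini-Hochberg adjustment over all tested TUs, 221 TUs, or 0.777% of those tested, differed between 6hpd and 2hpd. Of them 74 (0.26%) were called higher at 6hpd and 147 (0.517%) lower. The size of the called differences had a median of 0.82 on the log2 scale among the higher TUs and 0.94 among the lower ones, and 21 and 69 of them respectively exceeded 2-fold. The median log2 fold change of all tested TUs was -0.02. The libraries of the 2 times did not overlap for any of the 221 called TUs, nor for 11278 of all 28459 tested TUs. Lack of overlap is therefore given below as description only. Against NT, the called higher TUs had a median log2 fold change of 0.23 at 2hpd and 1.05 at 6hpd, and the called lower TUs 0.21 and -0.83. These comparisons share libraries, so they are given side by side as levels and not as tests of each other. The number of calls depended on single libraries. Without 2hpd replicate 1, 57 TUs were called higher and 110 lower, without 2hpd replicate 2, 25 TUs were called higher and 80 lower, without 6hpd replicate 1, 28 and 47, and without 6hpd replicate 2, 48 and 51. Leaving out a 1hpd library, which is in the fit but not in the comparison, gave 50 and 110 without replicate 1 and 50 and 111 without replicate 2.

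**Figure D1:**
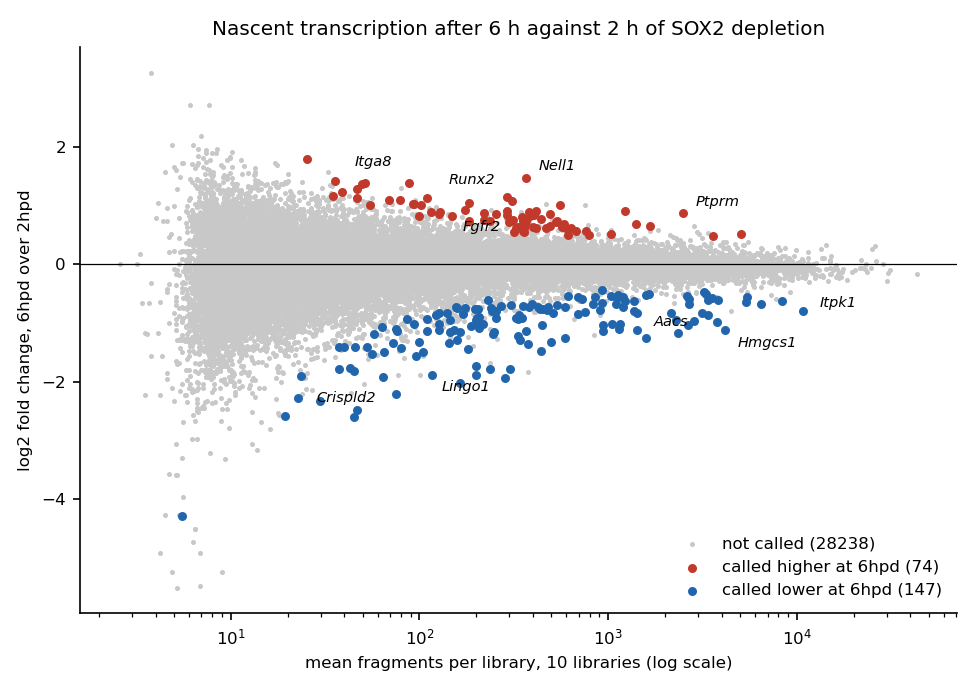
Log2 fold change of 6hpd over 2hpd (vertical axis) against the mean number of fragments per library (horizontal log axis) for the 28459 tested TUs, each a point. The 74 TUs called higher are red and the 147 called lower are blue, and calls below a mean of 50 fragments were few (7 higher and 13 lower).

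Sox2 and 7 others of the genes picked from the study or from earlier results of this time course did not pass the test in this interval. Hmgcs1, Nell1, Runx2, Ptprm and Icam1, picked in the same ways, did pass and are given below. The Sox2 TU, which also covers the same-strand non-coding gene Sox2ot, stood at 273 and 288 CPM at 2hpd and 271 and 278 CPM at 6hpd, a log2 fold change of -0.03 ± 0.11 (SE; adjusted p = 0.956). The tag acts on the protein, so this RNA level says nothing about depletion. Klf2, a naive pluripotency factor, had been at 76.9 and 79.1 CPM in NT and was at 5.26 and 6.84 CPM at 2hpd and 6.67 and 6.35 CPM at 6hpd. Its low level was therefore in place by 2 h, with a log2 fold change of 0.11 ± 0.16 between the times (adjusted p = 0.864). Aoah, a lipase that inactivates bacterial endotoxin, had gone from 139.7 and 145 CPM in NT to 9.61 and 9.18 CPM at 2hpd, and at 6hpd it was at 8.29 and 9.43 CPM. The nucleoside transporter gene Slc28a3 had the opposite course, at 12.5 and 13.4 CPM in NT, 39.8 and 34.8 CPM at 2hpd and 36.0 and 38.8 CPM at 6hpd. The ESC non-coding RNA Platr11 was under 1 CPM in all 4 libraries (log2 fold change -1.14 ± 0.37, adjusted p = 0.243). Suv39h1, a histone methyltransferase, Top1, the DNA topoisomerase, and Ctgf, the connective tissue growth factor gene, gave log2 fold changes of 0.10 ± 0.10, -0.10 ± 0.15 and 0.30 ± 0.21, all with adjusted p of at least 0.655.

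Of the 29 gene lists examined, cholesterol synthesis had the most called members and the lowest median. Of the 22 genes of the pathway, all tested, 16 were called lower at 6hpd and none higher, against 0.517% of all TUs called lower, and 21 of the 22 had a negative log2 fold change. The median was -0.80, beside -0.02 over all TUs, and the called members lay between -1.26 and -0.54, that is at 41.7% to 68.7% of their 2hpd level. Summed over the list, nascent transcription stood at 1502 and 1314 CPM in NT, 2494 and 2439 CPM at 1hpd, 2814 and 2598 CPM at 2hpd and 1604 and 1396 CPM at 6hpd. The 6hpd sums thus lay close to those of NT, and both 2hpd sums above every NT library. The count of called members depended on the 6hpd libraries, with 10 without replicate 1 and 7 without replicate 2, while the median was -0.89 and -0.68 in those fits.

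Along the pathway, the fall reached its first steps and its last. Hmgcs1, the synthase that makes HMG-CoA, was at 382 and 342 CPM at 2hpd and 186 and 148 CPM at 6hpd (log2 fold change -1.12 ± 0.13, adjusted p = 0.000559). The higher of its 6hpd libraries was replicate 1, and it lay well under both 2hpd libraries. Among the isoprenoid steps, the isomerase gene Idi1 went from 78.8 and 73.8 CPM to 36.3 and 33.5 CPM (-1.13 ± 0.10, adjusted p = 0.000253), having been at 38.8 and 35 CPM in NT. Fdft1, the squalene synthase at the branch point towards sterols, went from 247 and 228 CPM to 125 and 117 CPM (-0.97 ± 0.10). NT values of Fdft1 were 122.97 and 113.4 CPM, so both genes were back near their NT level. Lss, which closes the squalene chain into the sterol ring, had the lowest value of the list, from 154 and 149 CPM to 70.3 and 56.3 CPM (-1.26 ± 0.13, adjusted p = 0.000254). Cyp51, the lanosterol demethylase, fell from 215 and 189.6 CPM to 96.1 and 83.8 CPM (-1.17 ± 0.13). These ring-forming and trimming steps had no overlap between the times. Further called members, chosen for mention after their values were seen, were the mevalonate-pathway genes Acat2, Mvk, Mvd and Fdps, the squalene epoxidase gene Sqle and the later sterol enzymes Msmo1, Nsdhl, Hsd17b7, Sc5d and Dhcr7, with log2 fold changes from -1.03 for Msmo1 to -0.54 for Sc5d. The 6 that did not pass included Pmvk (-0.69 ± 0.17, adjusted p = 0.0806) and Ggps1, which makes geranylgeranyl diphosphate on the branch away from sterols and was the one member above 0 (0.10 ± 0.13, adjusted p = 0.833).

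The promoters of 4 of the leading members are shown because these genes moved together and their known regulators, SREBP2 and its partner NF-Y, bind short elements near the start. The windows run from 250 bases before to 50 after a RefSeq start (GRCm38.p6), 5′ to 3′ on the strand of the gene, with matches in capitals. The letters searched on both strands were TCACNCCAC, the core of a sterol regulatory element, and CCAAT, the box bound by NF-Y, which reads ATTGG on the opposite strand. Hmgcs1 lies at chr13:119690101-119690400 on the plus strand, Idi1 at chr13:8885356-8885655 on the plus strand, Lss at chr10:76531355-76531654 on the plus strand and Cyp51 at chr5:4104648-4104947 on the minus strand.
Hmgcs1: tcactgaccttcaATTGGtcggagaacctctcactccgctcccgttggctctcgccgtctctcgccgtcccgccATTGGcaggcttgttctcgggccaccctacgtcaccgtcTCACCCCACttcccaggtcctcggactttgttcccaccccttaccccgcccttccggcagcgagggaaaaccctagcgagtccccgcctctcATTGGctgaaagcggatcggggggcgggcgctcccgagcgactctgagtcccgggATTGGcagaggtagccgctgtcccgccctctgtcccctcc
Idi1: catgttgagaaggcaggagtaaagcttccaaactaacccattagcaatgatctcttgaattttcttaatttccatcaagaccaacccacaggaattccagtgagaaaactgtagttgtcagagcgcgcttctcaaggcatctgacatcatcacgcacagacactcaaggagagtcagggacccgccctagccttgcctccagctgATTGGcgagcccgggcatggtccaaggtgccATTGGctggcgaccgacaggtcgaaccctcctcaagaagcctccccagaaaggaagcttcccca
Lss: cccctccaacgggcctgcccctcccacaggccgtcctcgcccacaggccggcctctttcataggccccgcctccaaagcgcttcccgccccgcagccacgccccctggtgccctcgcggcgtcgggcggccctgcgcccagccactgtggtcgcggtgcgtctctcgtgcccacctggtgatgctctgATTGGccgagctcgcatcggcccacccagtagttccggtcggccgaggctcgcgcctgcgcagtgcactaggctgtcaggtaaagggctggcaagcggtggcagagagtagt
Cyp51: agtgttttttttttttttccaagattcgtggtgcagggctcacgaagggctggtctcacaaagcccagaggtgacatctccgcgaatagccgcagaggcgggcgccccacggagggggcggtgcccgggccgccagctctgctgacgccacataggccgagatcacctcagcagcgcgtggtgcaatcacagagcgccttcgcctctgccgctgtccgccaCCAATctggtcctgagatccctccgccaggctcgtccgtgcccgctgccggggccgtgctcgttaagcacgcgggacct
Hmgcs1 held 4 CCAAT matches and the sterol element match TCACCCCAC, Idi1 held 2 CCAAT matches, and Lss and Cyp51 held 1 each, with no overlap between the 2 motifs. Over the 17 of 22 listed genes with an entry in the promoter table, CCAAT was present in 15 (88.2%), against 37.4% of all 32851 windows. The members that hold it include Ebp, Tm7sf2, Lbr and Ggps1, which were not called. Among the sterol sensing genes 5 of 9 windows (55.6%) held it. The sterol element letters were present in 1 of the 17 cholesterol synthesis windows (5.88%) and in 0 of the 9 others, against 1.24% of all windows. These are matches of letters in a window and not measured binding.

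Regulators and targets around the pathway moved less evenly. Of 15 genes of sterol sensing and uptake, 14 were tested and 4 were called lower, beside 0.517% of all TUs, and none higher, with a median of -0.30. Insig1, the SREBP retention factor that is itself an SREBP target, went from 176 and 179 CPM to 113 and 88.1 CPM (-0.83 ± 0.12, adjusted p = 0.00281). Lpin1, a phosphatidate phosphatase gene, went from 290.1 and 288 CPM to 153 and 164 CPM (-0.86 ± 0.11). Without 6hpd replicate 2, 2 of the 4 calls were left, those of Insig1 and Lpin1. Srebf2 itself, which encodes SREBP2, gave -0.35 ± 0.10 (adjusted p = 0.138) and Scap 0.04 ± 0.10 (adjusted p = 0.929).

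Among 13 genes of fatty acid synthesis, 3 were called lower, beside 0.517% of all TUs, with a median of -0.28. Acly, which supplies cytosolic acetyl-CoA, went from 688 and 579 CPM to 428 and 390.3 CPM (-0.63 ± 0.12, adjusted p = 0.0243). Fasn, the fatty acid synthase (-0.60 ± 0.13), and Fads2, a desaturase (-0.57 ± 0.13), were close to the threshold, and no member of the list was called without 6hpd replicate 2, without either 1hpd replicate or in a fit of the 4 compared libraries alone. Of 5 targets of the oxysterol receptor LXR, a sensor of excess sterol, 4 were tested and none passed (median 0.28). The one with the smallest p was Mylip, a ubiquitin ligase gene, at 33.4 and 37.9 CPM and then 42.2 and 47.1 CPM (0.33 ± 0.11, adjusted p = 0.253). Aacs, which activates acetoacetate for lipid synthesis and was in none of the lists, fell from 125 and 127 CPM to 64.4 and 52.2 CPM (-1.11 ± 0.11, adjusted p = 0.000254), and its NT values were 58.9 and 54.9 CPM. Named after its value was seen, the retinol dehydrogenase gene Rdh11 had the same form of course, at 26.2 and 24.5 CPM in NT, 50.8 and 44.2 CPM at 2hpd and 31.5 and 25.7 CPM at 6hpd (-0.74 ± 0.13).

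**Figure D2:**
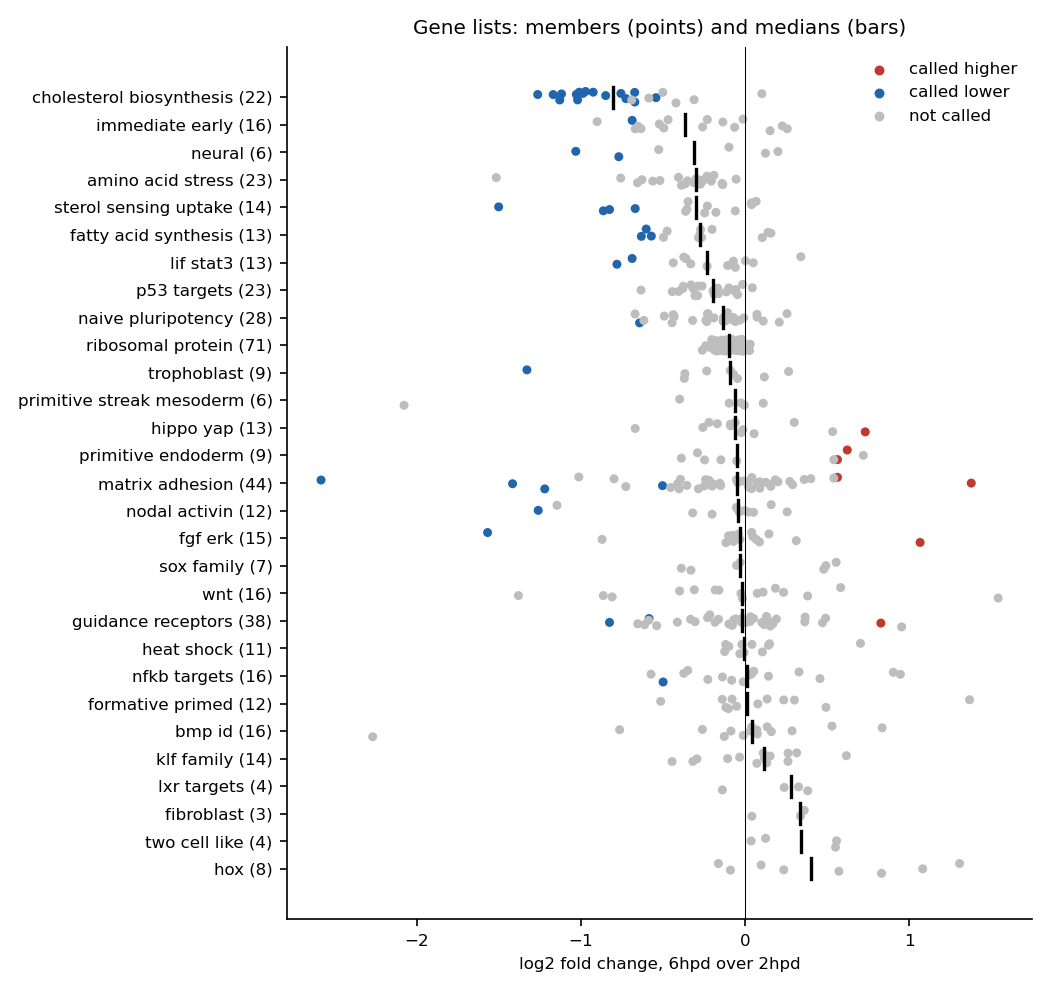
Log2 fold change of 6hpd over 2hpd for each tested member (points) of 29 gene lists, with the number of tested members in brackets and the list median as a black bar. Cholesterol biosynthesis has a median of -0.80 with 16 blue points, and 14 of the lists have no called member.

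Other leading falls went past the NT level. Lingo1, a leucine-rich repeat receptor component that restrains axon growth and myelination, was at 15.1 and 11.7 CPM in NT, 23.1 and 17.7 CPM at 2hpd and 5.62 and 5.07 CPM at 6hpd (-1.94 ± 0.18, adjusted p = 0.000253). Lrrn2, another leucine-rich repeat membrane protein gene, was at 23.8 and 23.2 CPM in NT, 19.7 and 19.8 CPM at 2hpd and 8.64 and 6.87 CPM at 6hpd (-1.36 ± 0.13). In each the 6hpd libraries lay under every NT and every 2hpd library. Col13a1, a transmembrane collagen, went from 20.6 and 19.6 CPM to 8.29 and 8.97 CPM (-1.22 ± 0.14), and the lipid transporter family gene Abca13 from 12.3 and 11.1 CPM to 3.93 and 3.14 CPM (-1.74 ± 0.20). Crispld2, a secreted protein gene, was at 2.56 and 2.83 CPM in NT, 7.59 and 8.43 CPM at 1hpd, 5.21 and 4.56 CPM at 2hpd and 1.26 and 0.874 CPM at 6hpd. Its log2 fold change of -2.21 ± 0.25 was the largest fall among these 12 leading genes (adjusted p = 0.000559).

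**Figure D3:**
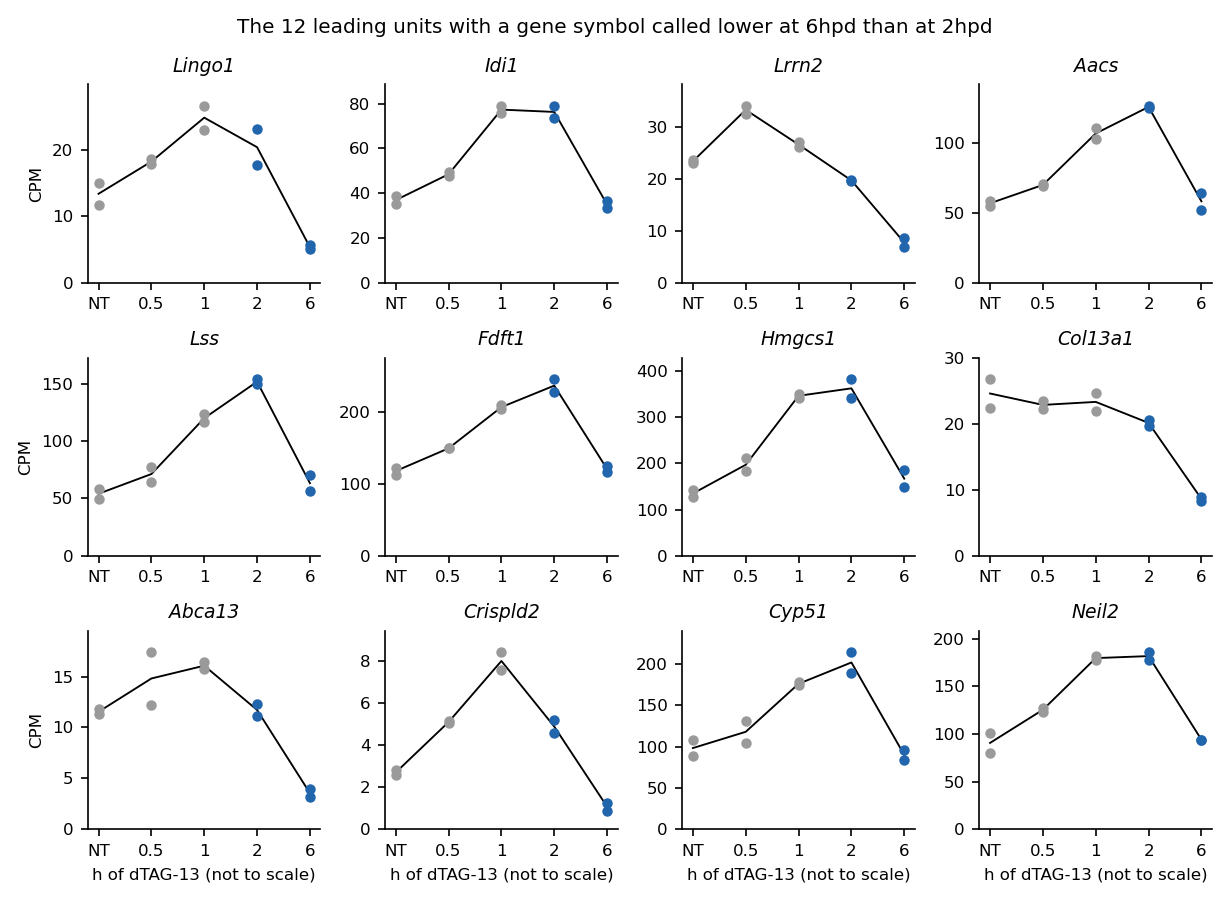
CPM in each library (points) and the mean of both libraries (line) over NT, 0.5hpd, 1hpd, 2hpd and 6hpd for the 12 leading TUs with a symbol called lower, each panel with its own axis from 0 and with times not to scale. Only TUs without overlap between the 2 times were eligible, so both 6hpd points lie below both 2hpd points by choice. Idi1, Aacs, Lss, Fdft1, Hmgcs1, Cyp51 and Neil2 return to about the NT level, while Lingo1, Lrrn2, Col13a1, Abca13 and Crispld2 end below it.

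In the neural marker list, 6 of 15 genes passed the filter on low counts, and 2 were called lower and none higher, where 0.517% of all TUs were called lower. Of the 6, 4 lay below 0 and 2 above, with a median of -0.31. Ncam1, the neural cell adhesion molecule, was at 87.8 and 90.9 CPM in NT, 27.9 and 18.1 CPM at 2hpd and 11.9 and 10.8 CPM at 6hpd (-1.03 ± 0.18, adjusted p = 0.0128). Tubb3, a neuronal tubulin, went from 9.1 and 9.23 CPM to 5.27 and 5.47 CPM (-0.77 ± 0.15, adjusted p = 0.0258). The summed level of the 6 markers was 135 and 141 CPM in NT and 62.4 and 53.5 CPM at 2hpd. It was 42.6 and 42.5 CPM at 6hpd, a late fall that came from Ncam1 and Tubb3, with the rest together about level. Further genes known from neurons were picked out after their values were seen, and add no support to a change of the list. Ntrk3, the receptor for neurotrophin-3, had gone from 24.0 and 26.1 CPM in NT to 13.3 and 8.06 CPM at 2hpd and reached 2.81 and 3.38 CPM at 6hpd (-1.79 ± 0.22, adjusted p = 0.0011). Tmem132d was at 7.74 and 9.35 CPM and then 1.83 and 2.33 CPM (-2.02 ± 0.25). Ctnnd2, the neural delta-catenin, went from 26.7 and 19.5 CPM to 7.87 and 10.4 CPM (-1.33 ± 0.18). These 3 long TUs fell without overlap between the times. Stmn2, a microtubule regulator of growing axons (-1.11 ± 0.21), Scn3a, a sodium channel subunit (-0.96 ± 0.18), and Nos1, the neuronal nitric oxide synthase (-1.09 ± 0.15), were also called. The direction was not shared by Nefm, a neurofilament subunit, which rose from 7.74 and 7.01 CPM to 13.9 and 13.6 CPM (0.89 ± 0.15, adjusted p = 0.0121), nor by Kcnc1, a potassium channel, which rose from 2.83 and 4.03 CPM to 11 and 6.7 CPM (1.37 ± 0.27, adjusted p = 0.0259). In bulk samples, fewer cells of a type and less RNA per cell cannot be told apart.

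Signalling lists held between 0 and 3 called members each. In the FGF and ERK list, 1 of 15 tested members was called higher, the receptor Fgfr2, and 1 lower, the feedback inhibitor Spry4, beside 0.26% and 0.517% of all TUs. Spry4 was low throughout, at 6.88 and 8.36 CPM at 2hpd and 1.97 and 3.09 CPM at 6hpd (-1.57 ± 0.30, adjusted p = 0.0223), and its NT values were 2.09 and 4.36 CPM. In the LIF and STAT3 list, 2 of 13 were called lower, beside 0.517% of all TUs, the AP-1 gene Junb (-0.69 ± 0.12) and the survival kinase gene Pim3 (-0.78 ± 0.15), with a list median of -0.23, and neither call was made without 2hpd replicate 2 or without 6hpd replicate 2. Lefty2, an antagonist of NODAL and itself a NODAL target, was the 1 called member of 12 in its list, beside 0.517% of all TUs called lower, at 32.6 and 47.5 CPM and then 13.1 and 20.1 CPM (-1.26 ± 0.22, adjusted p = 0.0127). Its replicates were wide apart at both times, yet did not overlap. Among 38 tested guidance receptors and ligands, 2 were called lower and 1 higher, beside 0.517% and 0.26% of all TUs. Epha2 fell from 166 and 169 CPM to 100.2 and 88.8 CPM (-0.83 ± 0.10, adjusted p = 0.00114) and the secreted cue Slit3 from 39.7 and 39.2 CPM to 24.2 and 28.4 CPM (-0.58 ± 0.11), while Efnb2 rose. Fgf10, a secreted FGF picked out after its value was seen, went from 23.8 and 17.7 CPM to 8.5 and 8.44 CPM (-1.29 ± 0.18).

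A further group had been high early and was lower again at 6hpd. Eomes, the T-box factor of trophoblast and primitive streak, was the 1 called member of 9 tested trophoblast markers (0.517% of all TUs were called lower), at 2.15 and 2.69 CPM in NT, 7.53 and 7.52 CPM at 1hpd, 7.63 and 9.18 CPM at 2hpd and 3.16 and 3.49 CPM at 6hpd (-1.33 ± 0.19, adjusted p = 0.00316). Icam1, an adhesion molecule induced by NF-kB, was the 1 called of 16 in its list, beside the same 0.517%, at 68.6 and 69.6 CPM in NT, 93.9 and 102 CPM at 2hpd and 70.0 and 68.9 CPM at 6hpd (-0.50 ± 0.10, adjusted p = 0.025). Zc3h12a, the RNase that limits inflammatory mRNAs, gave a similar value without passing (-0.57 ± 0.14, adjusted p = 0.0814). Of genes picked after their values were seen, the Ras GTPase-activating gene Rasa4 (-0.67 ± 0.10), the argininosuccinate synthase gene Ass1 (-0.56 ± 0.10), the laminin chain gene Lama5 (-0.50 ± 0.10), the urokinase receptor gene Plaur (-0.72 ± 0.14) and the transcription factor gene Runx3 (-1.07 ± 0.20) passed the test in the same direction. Runx3 was at 3.09 and 3.26 CPM at 6hpd, above its NT values of 1.82 and 1.38 CPM.

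The leading risers were mostly genes whose increase had begun by 2 h and went on. Nell1, a secreted protein that promotes bone formation, was at 6.19 and 7.05 CPM in NT, 23.5 and 19.3 CPM at 2hpd and 49.7 and 68.3 CPM at 6hpd (1.46 ± 0.16, adjusted p = 0.000559). Runx2, the master factor of the osteoblast lineage, was at 4.85 and 5.96 CPM in NT, 18.3 and 20.7 CPM at 2hpd and 37.5 and 48.7 CPM at 6hpd (1.15 ± 0.17, adjusted p = 0.00388). Both lay above every earlier library. Ptprm, a receptor tyrosine phosphatase that mediates cell adhesion, rose from 156 and 144 CPM to 245 and 305 CPM (0.88 ± 0.11), and Fgfr2, the FGF receptor used in primitive endoderm and trophoblast, from 20.3 and 17.4 CPM to 42.8 and 36.3 CPM (1.07 ± 0.14). Efnb2, the transmembrane ligand of EphB receptors, rose from 23.3 and 23.4 CPM to 38.3 and 44.5 CPM (0.83 ± 0.12). Fam49a, a regulator of RAC1 signalling, rose from 86.8 and 86.1 CPM to 132 and 147 CPM (0.69 ± 0.10), and Ptgr1, a prostaglandin reductase, from 19.4 and 18.6 CPM to 31.8 and 30.8 CPM (0.72 ± 0.12). In each of these 7 genes the 2hpd values already lay above the NT values.

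Among the other leading risers, both 2hpd values of Nr2f2 lay slightly above those of NT, and those of Pdgfc straddled them. Nr2f2, the nuclear receptor COUP-TFII, was at 16.4 and 17.1 CPM in NT, 18.7 and 19.99 CPM at 2hpd and 35.2 and 32.0 CPM at 6hpd (0.80 ± 0.12, adjusted p = 0.00407). Pdgfc, a PDGF ligand, was at 62.3 and 64.2 CPM, 73.0 and 59.4 CPM, and 109.7 and 137 CPM in the same order (0.90 ± 0.13). At 1hpd Pdgfc had been at 50.4 and 51.5 CPM, under both NT libraries. Itga8, an integrin chain, was at 3.23 and 2.98 CPM, 4.2 and 5.2 CPM, and 11.7 and 12.7 CPM (1.38 ± 0.20), so that its 2hpd values already lay above those of NT. The last set had been lower at 2hpd than in NT. Klhl32, a Kelch family gene, was at 20.2 and 19.8 CPM in NT, 13 and 11 CPM at 2hpd and 20.2 and 25 CPM at 6hpd (0.91 ± 0.14, adjusted p = 0.0056). Map2k6, a kinase that activates p38, was at 37.6 and 41.6 CPM, 16.6 and 18.4 CPM, and 28.9 and 34.5 CPM (0.86 ± 0.14). So Klhl32 returned to its NT level, and Map2k6 rose to values still under both NT libraries. The lipoprotein lipase gene Lpl, named after its value was seen, had a like course, with 14.1 and 16.4 CPM, 9.56 and 10.2 CPM, and 16.4 and 19.5 CPM (0.86 ± 0.14).

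**Figure D4:**
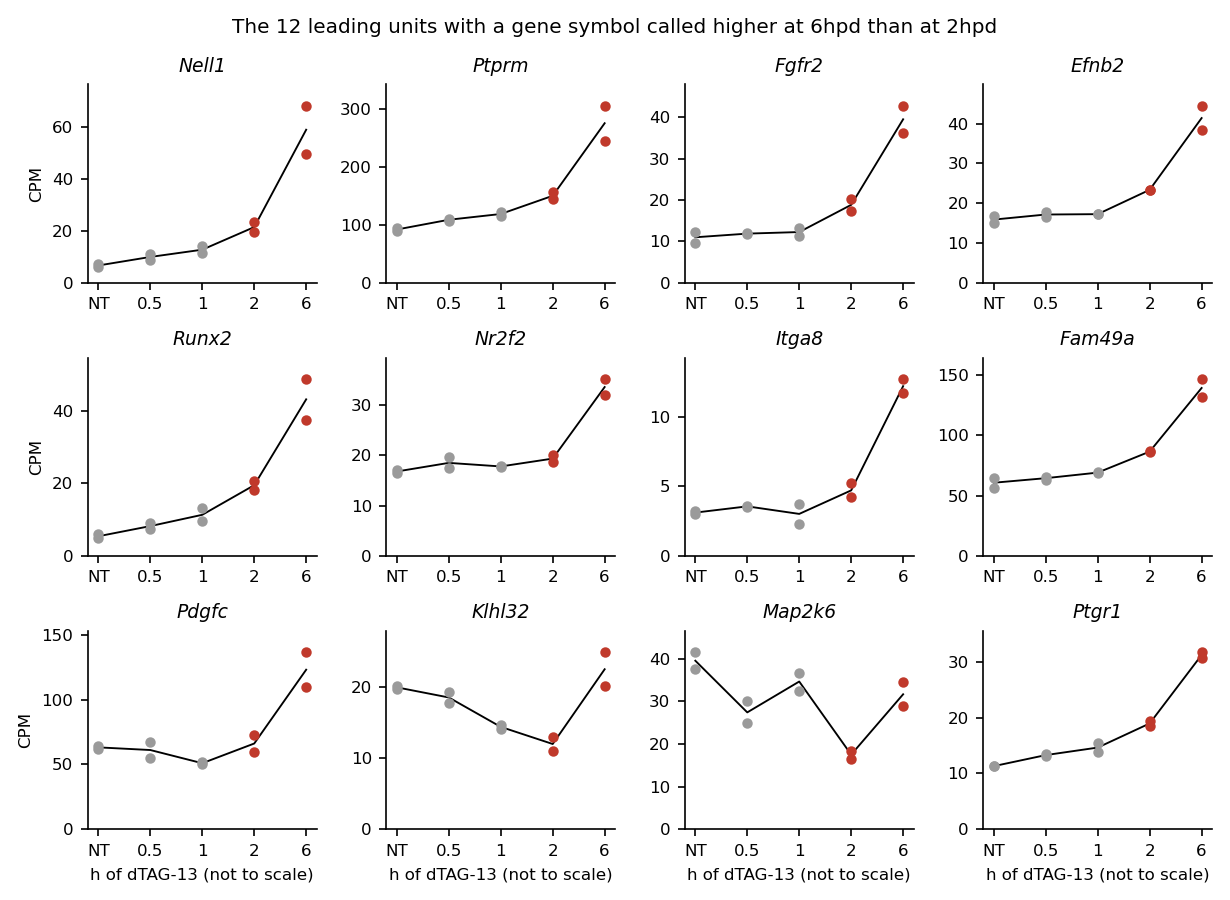
CPM in each library (points) and the mean of both libraries (line) over the 5 groups for the 12 leading TUs with a symbol called higher, each panel with its own axis from 0 and with times not to scale. Only TUs without overlap between the 2 times were eligible, so both 6hpd points lie above both 2hpd points by choice. Before the rise Klhl32 and Map2k6 dip to their lowest at 2hpd, and Pdgfc dips at 1hpd.

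Lineage marker lists held few called members. In primitive endoderm, the extraembryonic lineage that lays down laminin, 9 of 16 genes were tested and 2 were called higher (0.26% of all TUs were) and none lower, with 4 members above 0, 5 below and a median of -0.05. Dab2, an endocytic adaptor, rose from 30.1 and 34.6 CPM to 44.7 and 54.7 CPM (0.62 ± 0.13, adjusted p = 0.0445), and Lama1, a laminin chain, from 33.6 and 29.8 CPM to 45.7 and 48.0 CPM (0.56 ± 0.11, adjusted p = 0.0233). Lama1 had been at 61.3 and 58.7 CPM in NT, above both 6hpd libraries, while Dab2 had been at 12.7 and 13.7 CPM. The defining factors of the lineage were near the floor and not called. Gata6 was at 2.68 and 2.4 CPM and then 2.32 and 1.86 CPM. The summed level of the 9 genes was 227 and 235 CPM at 2hpd and 258 and 262 CPM at 6hpd. This rise came from Dab2 and Lama1, and the sum of the remaining members was about level. Dab2 lost its call in 11 of the alternative fits and Lama1 in 3, without 2hpd replicate 2 and without either 6hpd replicate. Among 44 tested genes of matrix and adhesion, 2 were called higher, Itga8 and Lama1, and 4 lower, namely Col13a1, Lama5, Itga9 and Cdh23, with a median of -0.05, beside 0.26% and 0.517% of all TUs. In the Hippo and YAP list the one call of 13, beside 0.26% of all TUs called higher, was a rise of Crim1, a transmembrane BMP antagonist, from 24.3 and 20.3 CPM to 32.6 and 41.6 CPM (0.73 ± 0.14, adjusted p = 0.0243).

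Naive pluripotency genes gave 1 call among 28, a fall, where 0.517% of all TUs were called lower. Tdh, the threonine dehydrogenase on which mouse ESCs rely, fell from 265 and 298 CPM to 167 and 194 CPM (-0.64 ± 0.12, adjusted p = 0.0234). The list median was -0.13, with 23 of 28 members below 0, and the sum of the list was 6209 and 6279 CPM at 2hpd and 5428 and 5754 CPM at 6hpd. Nanog (0.07 ± 0.11), Pou5f1 (-0.24 ± 0.11) and Esrrb (-0.23 ± 0.11) did not pass. No member was called in 12 tested formative and primed genes, 6 of primitive streak and mesoderm, 3 of fibroblasts, 4 of the 2-cell-like state, 8 Hox, 7 Sox or 14 Klf genes, nor among heat shock, p53, BMP, WNT and 71 ribosomal protein genes. The POU factor gene Pou3f1, of the formative list, was at 1.16 and 0.877 CPM and then 2.39 and 2.91 CPM (1.37 ± 0.32, adjusted p = 0.0651), and the WNT antagonist gene Dkk1 at 0.708 and 1.29 CPM and then 2.46 and 3.26 CPM (1.54 ± 0.34, adjusted p = 0.0501). None of the 23 tested amino acid stress genes, the targets of ATF4, was called, although all 23 log2 fold changes were below 0 (median -0.30). Small negative values were also the rule among p53 targets (22 of 23 below 0, median -0.19) and ribosomal protein genes (68 of 71, median -0.10), again with none called. The smallest p there was that of the amino acid transporter gene Slc7a5, at 115 and 113 CPM and then 89.4 and 85.2 CPM (-0.39 ± 0.10, adjusted p = 0.101). With 1 of 16 immediate early genes called lower, Junb, beside 0.517% of all TUs, that list had a median of -0.36.

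The 2 directions differed in the length of their TUs. Among TUs with a symbol, the 63 called higher had a median length of 79.8 kb with quartiles of 41.4 and 156 kb, the 111 called lower 38 kb with quartiles of 23.1 and 64.9 kb, and all 14997 tested 26.0 kb. TUs over 100 kb made up 39.7% of the called higher, 13.5% of the called lower and 10.2% of all. With calls from DESeq2 the medians were 94.0 kb and 42.4 kb. The median number of fragments per library was 352.5 for the higher and 453.5 for the lower TUs, and a longer TU collects more fragments at a given rate, so the share that counting depth had in this difference was not tested. By class, 174 of 14979 TUs assigned to a single gene were called (1.16%), against 32 of 7793 extragenic TUs (0.411%) and 5 each of 2831 antisense to gene bodies, 2244 antisense to starts and 594 antisense to gene ends. The extragenic TUs had a median of 17.2 fragments per library, against 353.3 for the single-gene TUs.

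Many of the 47 called TUs without a symbol lay inside a known gene. Of them 20 (42.6%) had at least 90% of their length within a RefSeq gene on the same strand, against 9.66% of all 13462 tested TUs without a symbol. Pieces of the same gene count separately here, and several lie in Erc2 or Nav2. The share was 9 of 11 for those called higher and 11 of 36 for those called lower. The leading ones were an extragenic TU at chr10:34483482-34616443 on the plus strand, within the kinase gene Frk, which rose from 17.3 and 15.3 CPM to 27.2 and 31.0 CPM (0.84 ± 0.13, adjusted p = 0.00434), and one at chr5:66756301-66792861 on the plus strand within Limch1, which rose from 1.37 and 1.69 CPM to 3.72 and 4.37 CPM (1.41 ± 0.26). A further 2 rose inside genes of the same strand, one at chr3:59007197-59251036 on the plus strand in Med12l (0.73 ± 0.14) and one at chr11:110396685-110467531 on the plus strand, which covers the first part of Map2k6 (0.62 ± 0.12) and so repeats the rise of the Map2k6 TU. Of the leading falls, the TU at chr16:19211784-19276022 on the minus strand, in the immunoglobulin lambda region, went from 20.3 and 18.0 CPM to 6.32 and 7.34 CPM (-1.48 ± 0.15, adjusted p = 0.000254). At chr13:33868977-33891310 on the minus strand, partly within Serpinb6c, the level went from 7.33 and 6.43 CPM to 2.81 and 2.62 CPM (-1.34 ± 0.18). A TU at chr5:43848598-43872000 on the minus strand, antisense to the start of Cd38, went from 15.4 in both libraries to 7.87 and 8.5 CPM (-0.91 ± 0.14), having been at 34.7 and 40.9 CPM in NT. Within 50 kb of a called TU with a symbol and of the same direction lay 7 of the 47, and 6 lay within 10 kb. For comparison, 0.669% of all TUs without a symbol were within 50 kb of one called higher and 1.52% within 50 kb of one called lower. Within 10 kb the shares were 0.364% and 0.773%.

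Of the neighbourhoods, 2 held 3 or more called TUs within 100 kb of each other, and each is part of 1 long gene. They were picked for those calls after their values were seen, and their TUs are pieces of 1 gene, not separate members. On chromosome 14, 11 tested TUs lay on the plus strand within Erc2, which encodes a scaffold of the presynaptic active zone and spans chr14:27622275-28478537. All 11 had negative log2 fold changes and 5 were called lower, beside 0.517% of all TUs. The first of them, which starts 0.313 kb after the annotated start, was at 53.9 and 42.0 CPM at 2hpd and 29.0 and 33.4 CPM at 6hpd (-0.62 ± 0.14, adjusted p = 0.0553). The TU named for Gm34996, further into the gene at chr14:27844314-27968631, went from 18.4 and 11.5 CPM to 4.28 and 3.9 CPM (-1.88 ± 0.23, adjusted p = 0.00103), and the next one, at chr14:27970173-28114557, from 19.0 and 14.4 CPM to 4.71 and 4.95 CPM (-1.79 ± 0.17, adjusted p = 0.000254). Over the 11 TUs the log2 fold changes ran from -1.88 to -0.60, with the first TU near the upper end, and differences between TUs were not tested. On chromosome 7, 5 TUs lay on the plus strand within Nav2, a gene of neuronal migration that ends at chr7:49610090. All 5 were below 0, and 3 were called lower with log2 fold changes from -1.76 to -1.29, beside 0.517% of all TUs. The TU named for Gm32694, at chr7:49455602-49610555, went from 9.71 and 8.47 CPM to 3.86 and 3.61 CPM (-1.29 ± 0.17, adjusted p = 0.00154), and Nell1, the leading riser, began 365 kb downstream of its end on the same strand. Between them on that strand, Htatip2 gave 0.85 ± 0.43 (adjusted p = 0.491) and Prmt3 -0.20 ± 0.16 (adjusted p = 0.703).

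**Figure D5:**
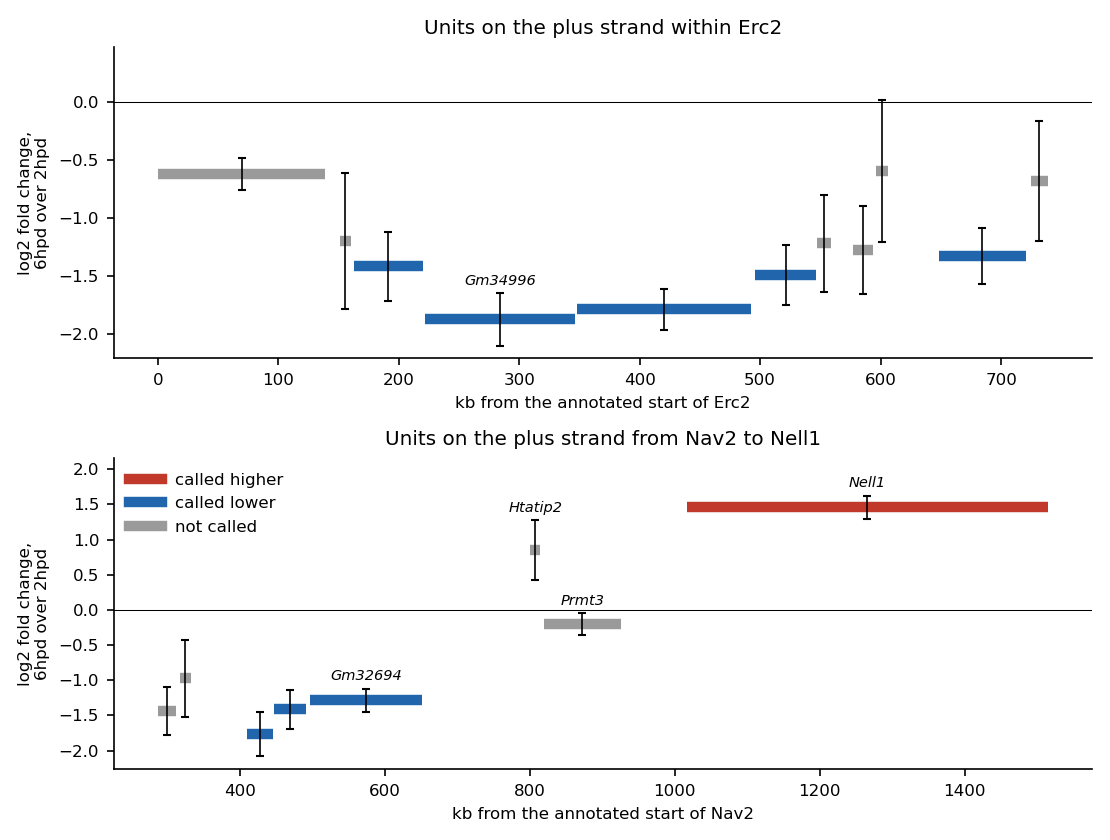
Log2 fold change of 6hpd over 2hpd (bars, with SE as error bars) for plus-strand TUs, drawn over the stretch each TU covers in kb from the annotated start of Erc2 (top) or Nav2 (bottom), blue for called lower, red for called higher and grey for not called. All 11 TUs of Erc2 lie below 0, as do the 5 of Nav2, while Nell1 lies at 1.46.

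Some gene names in these results rest on how the TUs were drawn. The TU named Neil2, a DNA glycosylase gene, runs over chr14:63161661-63193850 on the minus strand and fell from 186 and 178 CPM to 94.1 and 93.9 CPM (-0.95 ± 0.11, adjusted p = 0.000844). It overlaps the annotated Neil2 gene by 11.4 kb and the first 20.03 kb of Fdft1, which is 62.2% of the TU, and its end lies 11 bases from the TU named Fdft1 (-0.97 ± 0.10). Its fragments can therefore come from Fdft1, and the values for Neil2 are uncertain. Likewise the TU named Gm40260 (-1.15 ± 0.18) lies 11 bases downstream of Cyp51 on the same strand, and the Nell1 TU covers the first 56.0% of its gene. The TU named Fdft1 covers 45.2% of the Fdft1 gene, and 39.7% of the TU lies within it. The rest of that TU runs on past the gene end.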

How the data were processed

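TT_chem-seq libraries were compared as deposited by the authors, as raw fragment counts per TU. Per the study's methods, reads were aligned with bwa mem (0.7.17-r1188) to mm10, filtered with SAMtools (1.10), deduplicated with Picard (2.12.0) and split by strand, and TUs were called by a 2-state hidden Markov model on pooled data and associated with RefSeq genes. Positions are those of the deposited features and may start 1 base low. Counts were fitted with edgeR (4.0.16, R 4.3.3) using TMM factors, a quasi-likelihood test and 1 coefficient per group over all 10 libraries, which share 1 estimate of spread, and log2 fold changes are 6hpd over 2hpd with SE. TUs with an adjusted p below 0.05 are called. Library totals ranged from 11131490 to 25854106 fragments, and replicates differed by more than counting noise. Members and gene lists were chosen with earlier results of these data known. Genes named were in each direction the 12 lowest-p TUs that carried a symbol, were called and had no overlap between the libraries of the 2 times, up to 4 called members per list and direction (or the member with the smallest p), 4 TUs without a symbol per direction, some genes from earlier results, and those said to be chosen afterwards. Alternatives were DESeq2 (1.42.0), RLE factors, total counts, other filters, the 4 libraries alone, a replicate block and leaving out each library. The script was tested on simulated data. Promoters came from RefSeq (GRCm38.p6). Some called genes are not reported here by name.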

Additional observations from a re-analysis of the deposited data

How the results depend on the processing

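No named TU reversed direction, and 31 of 102 named called TUs kept their call in every alternative fit. Of the 102, none lost it with DESeq2, 29 with the 4 compared libraries only, 31 and 38 when 2hpd replicate 1 or 2 was left out, and 51 and 61 when 6hpd replicate 1 or 2 was left out. Leaving out one library gave between 25 and 87 TUs called higher, 47 and 149 called lower, 58 and 183 called with a symbol and 6 and 52 without one. Against 47 called TUs without a symbol over all libraries, 14 were called on dropping 2hpd replicate 2 and 6 on dropping 6hpd replicate 1. The numbers were 27 and 28 on dropping 1hpd replicate 1 or 2, 30 on dropping 2hpd replicate 1, and 31 both with total counts only and with the 4 libraries only. DESeq2 called 87 higher and 207 lower, 204 of them shared with the edgeR calls in direction. With the replicate number as a block, 415 were called higher and 590 lower, 683 with a symbol and 322 without, but the labels do not say that numbers pair samples, and the deviations of same-numbered libraries correlated at 0.0742 to 0.291 over the 10 pairs of groups, above 0.1 in 8 of them and at 0.0943 between 2hpd and 6hpd, so a shared source of the same-numbered libraries was neither shown nor excluded. Calls were few where a TU had a mean under 50 fragments (20 of 13500 TUs), and whether depth limited them was not tested. The cause of these changes was not tested.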

Other observations

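Neighbouring TUs in a few places changed together, and the examples here were chosen after their values were seen. On chromosome 12, the maternally expressed non-coding genes of the imprinted Dlk1-Dio3 region form consecutive plus-strand TUs. Meg3, at chr12:109539334-109603933, went from 187 and 163 CPM at 2hpd to 120.5 and 111 CPM at 6hpd (log2 fold change -0.60 ± 0.12, adjusted p = 0.0358 in edgeR), and Mirg, at chr12:109734980-109752936, from 69.4 and 66.7 CPM to 50.6 and 42.6 CPM (-0.55 ± 0.11, adjusted p = 0.0275). Rian, which lies between them, gave -0.60 ± 0.14 and did not pass (adjusted p = 0.0589). All 3 had lower values in both 6hpd libraries.

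A pair of TUs on opposite strands fell together on chromosome 13. Cd180, a Toll-like receptor homologue of B cells, went from 21.4 and 20.3 CPM to 12.2 and 10.8 CPM (-0.87 ± 0.13, adjusted p = 0.00407), and Gm41046, which overlaps its start on the minus strand, from 6.07 and 6.66 CPM to 3.58 and 3.38 CPM (-0.87 ± 0.18, adjusted p = 0.0349). The counting was strand-specific.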
